A study of Arabidopsis thaliana with 6 samples.

Results

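Pseudogenes and transposable element genes held 335 of the 3426 peak midpoints in the OE17-4 list, and the lists of all 3 lines together hold 12491 peaks. A peak of OE17-4 was taken when its midpoint lay outside every protein-coding gene but inside a gene that the RefSeq table of assembly TAIR10.1 classes as a pseudogene or transcribed pseudogene. That table has no separate class for transposable element genes, so the text calls all 4843 of these loci elements and does not say which of them are transposons. The members were thus chosen by the positions of the peaks themselves, so the number of members and their share are a description and support nothing.

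The peaks come from chromatin immunoprecipitation followed by sequencing (ChIP-seq) of the chromatin protein AtDEK3 in 14-day-old Arabidopsis seedlings of ecotype Col-0. The seedlings grew in 16 h of light and 8 h of dark. Each of the lines OE3-1, OE9-1 and OE17-4 overexpresses AtDEK3 with a cyan fluorescent protein (CFP) tag, and an antibody against green fluorescent protein pulled it down. All 3 lines carry the tagged protein, and the promoter that drives it is not given in the sources used here. Each line is an independent overexpressor with 1 ChIP library of 36 bp reads from nuclei of whole seedlings, and the 3 inputs were not analysed here.

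Transposable elements are DNA segments that can copy or move themselves, and plant genomes keep most of them silent with DNA methylation, small RNAs and compact chromatin. In Arabidopsis they gather in the heterochromatin around the centromeres, where protein-coding genes are sparse. Pseudogenes are copies of genes that have lost their coding function, and many lie among active genes on the chromosome arms. DEK proteins are chromatin proteins of animals and plants that bind DNA and histones.

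The 335 members had 25 to 1155 reads, with a median of 132 and quartiles of 105.5 and 174.5. The other 3091 OE17-4 peaks had 29 to 15690 reads, with a median of 137 and quartiles of 112 and 172. Medians and quartiles of the members were thus close to those of the rest of the list, while the 5 highest counts of the list were not among the members. Members were 50 to 387 bp long with a median of 140 bp, against a median of 136 bp for the other peaks. Forward and reverse reads were about equally balanced, with a median normalized difference between strands (the absolute difference over all reads) of 0.08 in members and 0.07 elsewhere. In total the members held 9.64% of the OE17-4 reads in peaks and 10.4% of the bases covered.

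The class took 9.78% of the OE17-4 midpoints (335 of 3426, exact 95% interval 8.80 to 10.8%). It took 1.46% of those of OE3-1 (78 of 5332, 1.16 to 1.82%) and 2.22% of those of OE9-1 (83 of 3733, 1.77 to 2.75%). The OE17-4 interval lay above both others, and the mean over lines was 4.49% ± 4.60 (SD, n = 3). Elements outside protein-coding genes make up 8.68% of the chromosome length up to the last annotated gene. These intervals cover counting error only, and no test was made, since each line is 1 library. The lists also reach to different Wilcoxon filter p-values, so they were not cut alike. Class peaks had a median width of 140 bp in OE17-4, 66.5 bp in OE3-1 and 79 bp in OE9-1.

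The 335 midpoints fell in 317 of the 4843 elements, which is 6.55% of them, while 9.08% of 27444 protein-coding genes held an OE17-4 midpoint. OE3-1 midpoints fell in 1.51% of elements and 15.6% of protein-coding genes. OE9-1 midpoints fell in 1.67% and 5.00%. The share of elements hit was thus below the share of genes hit in each line, and the gap was smallest in OE17-4. A locus counts as hit however long it is, so rates per length were also taken.

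Per megabase of element length, OE17-4 had 32.4 peaks (exact Poisson 95% interval 29.0 to 36.0), against 39.5 in protein-coding genes (38 to 41.1). OE3-1 had 7.54 peaks per megabase of elements (5.96 to 9.41) and 74.6 in protein-coding genes. OE9-1 had 8.02 (6.39 to 9.94) and 21.6. Elements thus carried peaks at a lower rate than genes in all 3 lines, with the smallest gap in OE17-4, where the intervals did not overlap either. Depth of the libraries is not in the lists, so a rate is set beside other rates of its own line.

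In gene-poor stretches elements took a larger share of the OE17-4 midpoints than of those of the other lines. Gene-poor bins were taken as the 100 kb bins with at most 17 protein-coding genes, which are 251 of 1193 bins. In them elements held 256 of 626 OE17-4 midpoints, or 40.9% (exact 95% interval 37.0 to 44.9%). In OE9-1 elements held 49 of 679 midpoints there, or 7.22% (5.39 to 9.43%), and in OE3-1 20 of 242, or 8.26% (5.12 to 12.5%). The annotated length of these bins is 31.6% elements, 16.5% protein-coding genes and 40.6% intergenic sequence farther than 1 kb from a gene.

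Over the gene-poor bins together, the lines divided their midpoints among the classes differently. In OE3-1 80.2% of the midpoints in gene-poor bins were in protein-coding genes. In OE9-1 56.6% were in intergenic sequence farther than 1 kb from genes, and 22.8% in the 1 kb beside genes. OE17-4 divided its midpoints between elements at 40.9%, protein-coding genes at 27.3% and far intergenic sequence at 23.8%.

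**Figure D1:**
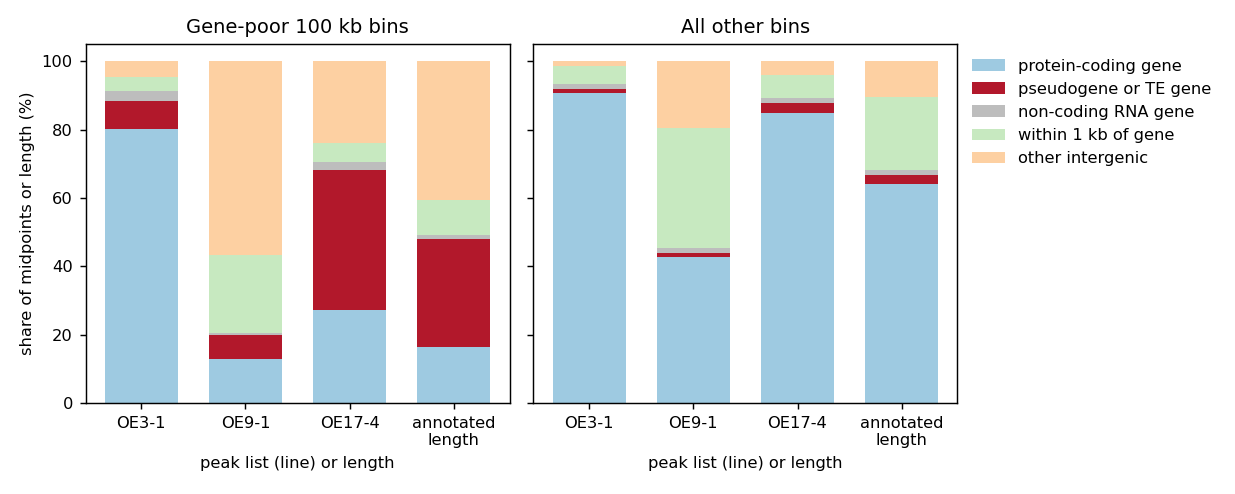
Stacked bars show the share in percent of peak midpoints of each line, and of annotated length, in 5 classes of sequence, for gene-poor 100 kb bins on the left and all other bins on the right. In gene-poor bins the class of pseudogenes and transposable element (TE) genes takes 40.9% of OE17-4 midpoints, against 8.26% in OE3-1, 7.22% in OE9-1 and 31.6% of the length.

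The OE17-4 rate over elements was the same in both kinds of surroundings. It was 32.4 peaks per megabase in gene-poor bins (exact Poisson 95% interval 28.5 to 36.6) and also 32.4 in all other bins (25.6 to 40.3). OE3-1 had 2.53 peaks per megabase of elements in gene-poor bins (1.55 to 3.91) and 23.8 elsewhere (18.0 to 30.7). OE9-1 had 6.20 (4.59 to 8.19) and 13.9 (9.64 to 19.5). Within OE3-1 and within OE9-1 the intervals of the 2 kinds of bins did not overlap. Of the 34 OE9-1 peaks elsewhere, 8 lay on chromosome 2 between 3201834 and 3361461. A rate without these 8 was not taken, so whether the OE9-1 intervals stay apart without them is not known.

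In all, 76.4% of the members lay in gene-poor bins (256 of 335, exact 95% interval 71.5 to 80.9%), close to the 75.8% of element length that lies there. Of the OE3-1 peaks in elements 25.6% did (16.4 to 36.8%), and of those of OE9-1 59.0% (47.7 to 69.7%). Among the other OE17-4 peaks 12% lay in such bins. Where 36 bp reads can be placed uniquely in repeats was not measured, and how the authors treated reads with several places is not given in the sources used here.

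Each chromosome has a 1 Mb window with the most element length, and distance from it gave a similar picture in OE17-4 and OE3-1. In these 5 windows OE17-4 had 76 class peaks, or 34.0 per megabase of elements (26.8 to 42.5), and they were 63.3% of its 120 peaks there. At 1, 2 and 3 windows away the rate was 30.5, 33.9 and 36.9, and at 8 or more windows 20.2 (11 to 33.9). OE3-1 had 6 class peaks in the richest windows, 2.68 per megabase, and 37.5 at 8 or more windows away. OE9-1 had 9, which is 4.02 per megabase, and 13.0 at 8 or more. Toward the arms the rate was thus higher in OE3-1, with intervals that did not overlap, while in OE17-4 the first and last intervals overlapped. Those of OE9-1 overlapped too (1.84 to 7.64 and 5.94 to 24.6), unlike its intervals for the 2 kinds of bins. The OE3-1 list held 0 peaks of any class in the first 1 Mb window of each chromosome. In these windows OE17-4 had 26 to 36 peaks each and OE9-1 27 to 49. Their length still counts in the OE3-1 rates.

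**Figure D2:**
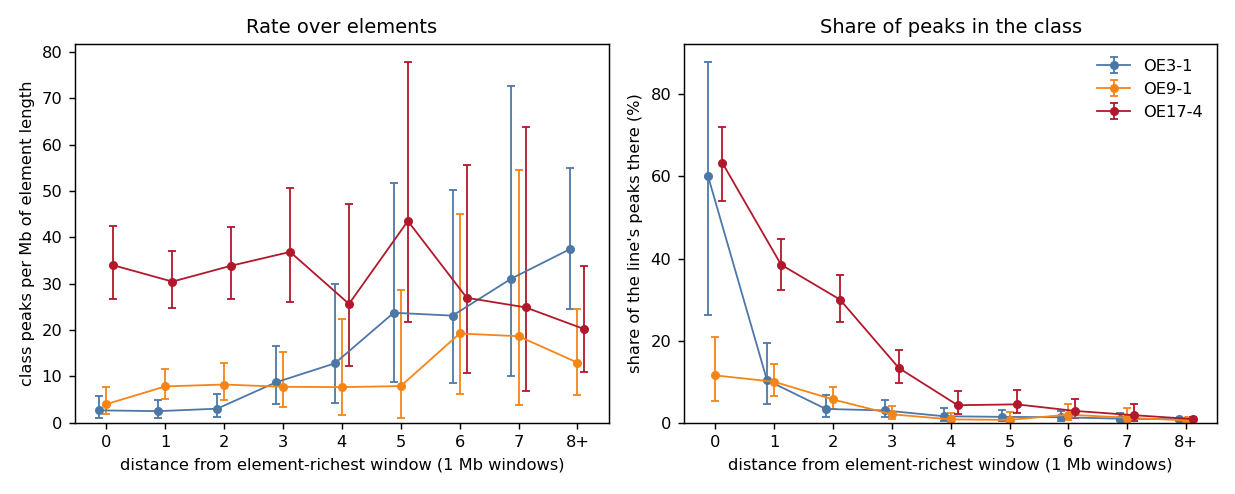
The left plot gives class peaks per Mb of element length, and the right plot the class as a share in percent of all peaks of the line, by distance in 1 Mb windows from the window with the most element length on each chromosome, for the 3 lines. Bars are exact 95% Poisson (left) and binomial (right) intervals; OE17-4 goes from 34.0 per Mb in the richest windows to 20.2 at 8 or more windows away, OE3-1 from 2.68 to 37.5 and OE9-1 from 4.02 to 13.0.

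Across the 121 windows, the number of OE17-4 members followed element length with Pearson's r of 0.95 and Spearman's rho of 0.81. The values were 0.61 and 0.56 in OE9-1 and 0.18 and 0.27 in OE3-1. These are descriptions over neighbouring windows of 1 library each, with 335, 83 and 78 peaks. The 2 windows with the most members held 21 each, and they are the element-richest windows of chromosomes 3 and 4. They held 2 and 2 class peaks of OE3-1, and 3 and 0 of OE9-1.

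By chromosome the members numbered 49, 72, 85, 63 and 66 on chromosomes 1 to 5. Per megabase of element length that was 24.9, 32.4, 35.6, 35.2 and 30.7. Median reads differed little, at 135, 130, 139, 129 and 135. On each chromosome at least 63.3% of the members were in gene-poor bins, with that value on chromosome 1 and the highest, 83.5%, on chromosome 3.

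The members were of both annotated kinds. Of the 335, 291 (86.9%, exact 95% interval 82.8 to 90.3%) lay in loci classed as pseudogene and 44 (13.1%) in loci classed as transcribed pseudogene. The first kind has 3917 loci and 89.6% of the element length, with 78.7% of loci in gene-poor bins. The second has 926 loci and 10.4% of the length, with 33.9% of loci in such bins. The split of the members was thus close to that of the length.

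In OE3-1 the kinds shared the class peaks equally, with 39 in each (50%, 38.5 to 61.5%). OE9-1 had 62 in pseudogene loci (74.7%, 64.0 to 83.6%) and 21 in transcribed ones. Per megabase, OE17-4 had 40.2 peaks in transcribed pseudogenes (exact Poisson 95% interval 29.2 to 54.0) and 30.9 in pseudogene loci (27.5 to 34.7). OE3-1 had 35.7 (25.4 to 48.8) and 4.14 (2.94 to 5.66), and OE9-1 had 19.2 (11.9 to 29.4) and 6.58 (5.05 to 8.44). The intervals of the 2 kinds overlapped in OE17-4 and did not in OE3-1 or OE9-1. In the pseudogene kind 82.8% of the OE17-4 members were in gene-poor bins, and 33.3% of the OE3-1 and 71.0% of the OE9-1 class peaks.

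Longer elements held members more often. Of the 809 elements over 4000 bp, 13.7% held an OE17-4 midpoint (exact 95% interval 11.4 to 16.3%), and of the 601 of at most 500 bp 1.83% did (0.917 to 3.25%). Per megabase the values went the other way, with 27.8 peaks in the longest elements and 52.9 in the shortest. These rates rest on 118 and 11 peaks, and no interval was taken for them. Elements with a member were longer, with a median of 2826 bp, and elements without one had a median of 1587 bp. In OE3-1 1.73% of the longest and 0.832% of the shortest elements held a midpoint.

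A larger share of midpoints than of the summed length of their elements lay near element ends. The median distance to the nearer end was 396 bp, and 54.6% of midpoints lay within 500 bp of an end (exact 95% interval 49.1 to 60.0%), where 27.8% of the length of the 317 elements lies. Only 25.4% lay 1000 bp or more inside, against 49.3% of the length. The length is summed over elements, so long elements weigh most in it, and an even spread within each element was not worked out in bp. Each distance was also taken as a share of the way from the end to the element's middle. An even spread within each element would then put 20% of midpoints in each 20% of the way. The outermost 20% held 25.1% of midpoints (20.5 to 30.1%) and the innermost 20% held 14.6% (11 to 18.9%), a smaller tilt toward the ends than in the bp shares. Strands are not in the table, so starts and ends of elements were not separated.

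**Figure D3:**
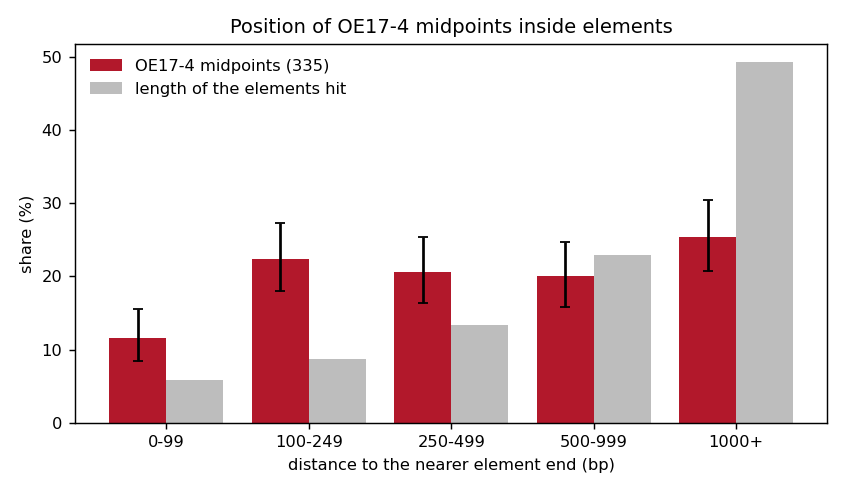
Bars give the share in percent of the 335 OE17-4 midpoints (red, with exact 95% binomial intervals) and of the summed length of their 317 elements (grey) by distance in bp to the nearer element end. The innermost class, 1000 bp or more from an end, holds 25.4% of midpoints and 49.3% of length. Long elements weigh most in the summed length.

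In OE9-1 26.5% of class midpoints lay within 100 bp of an element end (17.4 to 37.3%), and in OE17-4 11.6% did (8.41 to 15.6%). The OE3-1 share was 14.1% (7.26 to 23.8%). The OE9-1 interval did not overlap that of OE17-4. Among OE17-4 peaks 92.8% of the members lay wholly inside the element, and the authors' gene column named that element or its symbol in 93.4% of cases.

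At the edge of the rule, the midpoints nearest to an element end from inside were those in AT3G42251 and AT5G28760, each 1 bp inside, with 82 reads each. The nearest outside were 3 bp from AT4G08872, with 227 reads and a false discovery rate (FDR, the authors' value per peak) of 0.04%, and 7 bp from AT5G35535, with 104 reads. A further 4 midpoints lay in an element and a protein-coding gene at once and were counted with the gene. Of the 544 OE17-4 peaks outside protein-coding genes and elements, 55 of which lay in genes of non-coding RNA, 96 (17.6%) lay within 1 kb of an element.

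By FDR the members were spread over the whole list. Their median FDR was 0.87%, against 1.10% for the other OE17-4 peaks. An FDR of at most 0.1% was reached by 68 members (20.3%) and by 16.0% of the others. In OE3-1 and OE9-1 the class had medians of 2.64% and 3%, against 2.35% and 2.73% for the other peaks of those lines. The 10% of the OE17-4 list with the lowest FDR held 43 members (12.6%, exact 95% interval 9.25 to 16.6%), and the 10% with the highest FDR held 41 (12%, 8.72 to 15.9%).

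**Figure D4:**
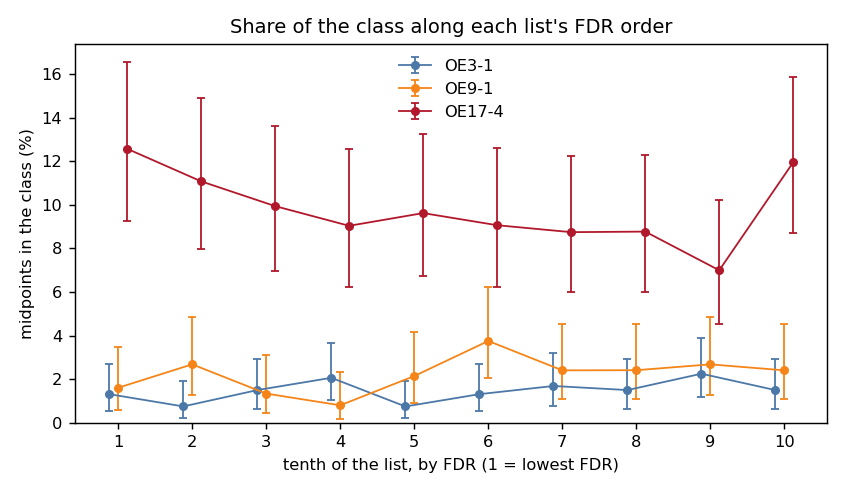
The share in percent of peak midpoints in pseudogenes and transposable element genes is plotted for each 10% of a line's list, ordered from the lowest to the highest FDR, with exact 95% binomial intervals. In OE17-4 the share is 12.6% at the lowest FDR and 12% at the highest, and in the other lines no point is above 3.75%.

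The member with the lowest FDR and the most reads was in AT4G06477, on chromosome 4 at 3061283 to 3061388 (TAIR10), with 1155 reads and an FDR of 1.83e-08%. Its 674 forward and 481 reverse reads gave a normalized difference of 0.17. It was eighth by FDR and sixth by reads in the whole list. The next by FDR were AT5G28495 on chromosome 5 at 10466768 to 10466916, with 546 reads split 273 to 273, and AT3G31312 on chromosome 3 at 12679828 to 12679991, with 220 reads.

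By FDR, AT3G43563 followed with 339 reads and AT1G43750 with 530, then AT4G07942 with 295, AT2G15250 with 213, AT2G04990 with 251, AT4G06636 with 163 and AT3G43152 with 149. All 10 are of the pseudogene kind, and all but AT2G15250 lie in gene-poor bins. The table gives none of them a name beyond its locus number, so their element types are not given.

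By reads, the members after AT4G06477 were in AT2G07677 with 1123 reads, AT2G10850 with 664, AT1G20390 with 596 and AT3G43863 with 567. AT5G28495 and AT1G43750, both among the lowest by FDR too, came next. They were followed by AT2G09920 with 475 reads, AT4G06566 with 417 and AT5G32690 with 384. The first 10 together held 12.2% of the members' reads. In OE3-1 the first 10 of 78 class peaks held 71.7%, and in OE9-1 the first 10 of 83 held 50.1%. The 10 are a larger part of the class in these lines than of the 335 members. The first 3 held 66.2% in OE3-1, 24.7% in OE9-1 and 5.56% in OE17-4.

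OE3-1 had 21288 reads in AT3G33002, the highest count of its list, with 8198 in AT2G07600 and 2383 in AT3G32990. OE9-1 had 7 class peaks over 1000 reads (8.43%, against 0.356% of its other peaks). OE3-1 had 3 (3.85%, against 0.019%) and OE17-4 had 2 (0.597%, against 0.194%). Library depth is unknown, so 1000 reads need not be a like limit in each line. Of the 7 in OE9-1, 6 lay on chromosome 2 between 3217188 and 3361461, in AT2G07635 with 2875 reads, AT2G07677 with 1830, AT2G07697 with 1315 and 1032, AT2G07826 with 1258 and AT2G07682 with 1063. The other was in AT1G34680 with 1265. The part of repeated sequence in these counts was not tested.

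**Figure D5:**
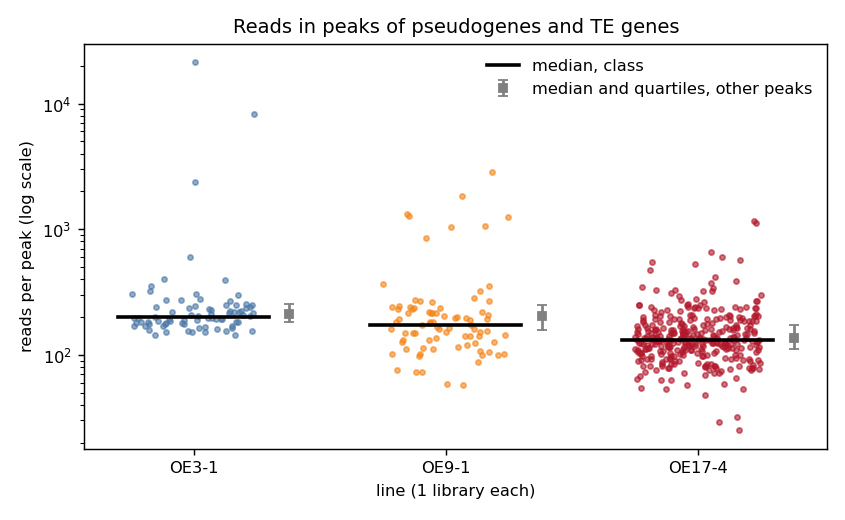
Each point is 1 peak in a pseudogene or transposable element gene, with its reads on a log axis, by line; black bars are class medians and grey squares with bars are medians and quartiles of all other peaks of that line. Class medians are 199, 173 and 132 reads in OE3-1, OE9-1 and OE17-4, and 3, 7 and 2 class peaks of these lines stand above 1000 reads.

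At the other end, the members with the highest FDR were in AT1G24686 with 98 reads and AT3G30703 with 53, both at 4.99%. The next, at 4.84%, were AT4G08145 with 132 reads, AT3G42622 with 84 and AT4G03790 with 63. The limit of the list was also 4.99%. The fewest reads were 25, in a peak of 98 bp in AT2G14130.

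More than 1 member lay in 17 of the 317 elements. AT5G32690, a transcribed pseudogene, held 3, on chromosome 5 at 12364411 to 12364499, 12367645 to 12367807 and 12380638 to 12380709, with 112, 384 and 116 reads. Its annotated span of 58519 bp is the longest of the class, the midpoints were 10128 to 26346 bp from its nearer end, and the authors' gene column named other loci for them. All other elements with several members held 2.

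In the 16 elements with 2 members, the peak with more reads had 1.02 to 3.31 times those of the other, with a median of 1.46 times. The 9 of these elements with the most reads in all were as follows. AT4G06506 had 182 and 241 reads, AT1G42450 140 and 273, AT5G32598 127 and 270 and AT1G47565 234 and 152. AT3G30120 had 265 and 80, AT5G28760 82 and 240 and AT3G29783 199 and 76. AT4G06591 had 159 and 116, and AT5G43196 130 and 163. In AT4G06591 the peak with fewer reads had the lower FDR, 0.00601% against 0.79%. The same held in AT5G28760, at 2.45% against 3.03%, and in some of the pairs outside these 9. Over all members, the median gap between neighbouring midpoints along a chromosome was 75985 bp and the smallest 584 bp. Of the 330 gaps 8 were within 1000 bp, and 6 of these were between members of the same element.

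A symbol of its own was given to 67 of the 4843 elements and to 7 of the 335 members' elements. SADHU9-1 and SADHU4-1 belong to Sadhu, a family of non-coding retrotransposons, elements that move through an RNA copy. On chromosome 1 the SADHU9-1 peak lay at 16985339 to 16985461 with 149 reads and an FDR of 1.59%. The SADHU4-1 peak lay on chromosome 5 at 10934024 to 10934179 with 107 reads and an FDR of 4.82%. Both were in gene-poor bins.

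The other 5 with a symbol were transcribed pseudogenes outside gene-poor bins. AOP2 belongs to a gene family of glucosinolate side chain modification, and its peak on chromosome 4 at 1352050 to 1352167 had 189 reads and an FDR of 0.04%. CYP51G2 and CYP71B33 are of the cytochrome P450 family of oxidising enzymes and had 126 and 154 reads. DRP4B is named for dynamins, which pinch off membranes, and had 227 reads. ATPP2-B3 is named for phloem protein 2, a family of lectins, and had 173 reads.

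In OE3-1 the named elements with a midpoint were others. They were CYTOSLEEPER with 243 reads, the ariadne ubiquitin ligase homologue ARI6 with 194, the Mei2-like gene ML3 with 177 and MUG8 with 209. MUG8 is of the MUSTANG family, genes that arose from transposases. OE9-1 had none with a symbol. A list of 15 loci of or beside well-studied transposons, all in the table, had midpoints at 0 in OE17-4, 2 in OE3-1 and 0 in OE9-1. Over all elements the shares hit were 6.55%, 1.51% and 1.67% in these lines. With 15 loci the counts are too small to be set against these shares. Names with a word for transposons were carried by 22 of the 4843 elements (0.454%) and by 2 of the 335 members (0.597%, exact 95% interval 0.0724 to 2.14%).

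OE17-4 shared 5 elements with OE3-1, which is 1.58% of its own 317 and 6.85% of the 73 of OE3-1. It shared 4 with OE9-1, which is 1.26% of its own and 4.94% of the 81 of OE9-1. Of all 4843 elements OE3-1 hit 1.51% and OE9-1 1.67%, so the shares among OE17-4 elements were near those among all elements. OE3-1 and OE9-1 shared 3, and 0 elements were hit in all 3 lines. Of 459 elements hit in any line, 9 had a midpoint of OE17-4 and of another line.

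Of the 335 members 1 was overlapped by a peak of another line (0.299%, exact 95% interval 0.00756 to 1.65%), against 2.36% of all OE17-4 peaks. Among the 3091 other OE17-4 peaks 80 were overlapped (2.59%, 2.06 to 3.21%), 70 of them by OE3-1. OE9-1 peaks overlapped 0 members (0%, 0 to 1.10%) and 10 of the other peaks (0.324%, 0.155 to 0.594%), with intervals that overlapped. The OE3-1 list is sparse in elements, with 7.54 peaks per megabase there and 74.6 in protein-coding genes. What part this has in the overlap was not tested. OE17-4 peaks in the first 1 Mb of each chromosome, where the OE3-1 list has 0 peaks, could not be overlapped by that line. Of the 26 to 36 OE17-4 peaks in each of these windows, 0 to 3 were members, so this limit falls mostly on the other peaks. The overlapped member lay in the transcribed pseudogene AT5G43196, on chromosome 5 at 17345430 to 17345615, with 163 reads and an FDR of 0.09%. The OE3-1 peak at 17345548 to 17345615 had 194 reads and an FDR of 3.64%, and the overlap was 68 bp. Both end at the same base.

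In AT4G24977, another transcribed pseudogene, the OE17-4 peak on chromosome 4 at 12845730 to 12845843 with 121 reads lay 6 bp from an OE3-1 peak at 12845659 to 12845724 with 198 reads. This element is 340 bp long. In AT2G07677 on chromosome 2 the OE17-4 peak at 3279935 to 3280012 had 1123 reads and an FDR of 0.04%, and the OE9-1 peak at 3279829 to 3279915 had 1830 reads and an FDR of 0.15%, with a gap of 20 bp. This locus is thus among the highest by reads of the class in both lines. It lies in the stretch of chromosome 2 that held most of the OE9-1 class peaks over 1000 reads. The part of repeated sequence in its reads was not tested.

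In the other 6 shared elements the peaks were at least 542 bp apart. In AT4G14610 the OE17-4 peak had 120 reads and the OE3-1 peaks 223 and 598. AT4G03310 had 82 and 164 reads in OE17-4 and OE3-1, and AT4G28900 158 and 191. AT2G11780 had 118 and 150 in OE17-4 and OE9-1, AT2G25020 113 and 136, and AT5G30269, 14591 bp long, 201 and 126. Over all members the nearest OE3-1 peak of any class was a median of 52306 bp away and the nearest OE9-1 peak 14647 bp, and 5 and 12 members had one within 1000 bp.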

How the data were processed

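The 3 ChIP peak lists were used as deposited, 1 per line, with positions on TAIR10 per the submitters' processing notes. No source used here names the aligner or the peak caller. Reads per peak, in total and per strand, are raw counts deposited by the authors. FDR is a percent, the strand difference a fraction of reads, and the Wilcoxon filter p-value a p-value, all as the authors deposited them and the file headers name them. Empty rows and repeated regions were dropped. Lists held 549029 to 1235876 reads in peaks, and library depth is unknown.

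Midpoints were classed with the RefSeq table of TAIR10.1, whose coordinates are not printed, protein-coding genes first. In nested elements the shortest was taken. Classing was tested on simulated positions. The members and lists were chosen with earlier results of these data known. Loci are named by the most midpoints, the lowest and highest FDR, the most reads, a symbol in the table or a peak in another line, and AT2G14130, AT3G42622, AT4G03790, the OE3-1 and OE9-1 peaks with most reads and the edge cases were named after their values were seen. A test was planned for no result. Element types had been planned but the table holds no descriptions. Work was done in Python 3.11.15 with pandas 2.3.3 and scipy 1.17.1.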

Additional observations from a re-analysis of the deposited data

How the results depend on the processing

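Of 42 values under an alternative, 32 stayed within the interval, SD or 1.5-fold of the reported value and 10 moved. Among the 32, the median reads of members minus those of the other OE17-4 peaks turned from -5 to 2 in the 50% with the lowest FDR. With the biotype pseudogene alone, the class held 8.49% of OE17-4 midpoints and 82.8% of them lay in gene-poor bins. In bins where elements outnumber protein-coding genes lay 65.4% of the members. The authors' gene column, an alternative chosen after seeing the data, named an element for 14.3% of OE17-4 peaks. In the 50% of each list with the lowest FDR, 0 members were overlapped by a peak of another line, 3 elements were shared, and 0% of members had a name with a word for transposons. A peak of another line, of any class, lay within 500 bp of 4 members, in 4 elements. An overlap of at least 50% of the shorter peak was met by 1 member, in 1 element. These element counts are of another quantity than the 9 shared elements, which need a midpoint of both lines inside. By construction, the lower-FDR lists hold fewer peaks and the position limits are other limits; further causes were not tested. The mean share over lines without 1 line ranged from 1.84% to 6%, the lowest without OE17-4. At the highest Wilcoxon filter p-value that all lists reach, OE17-4 had a share of 9.78%, against 1.57% for OE3-1 and 2.24% for OE9-1. This limit kept 100% of the OE17-4 peaks, 37.1% of those of OE3-1 and 22.8% of those of OE9-1. No paired analysis was possible because the results come from no test and the inputs were not analysed. Library depth is unknown, so what it limits was not measured.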
